A study of Mus musculus with 12 samples.

Results

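The genes of cholesterol and fatty acid synthesis were followed through knockouts of E12 and E47 in mouse neural stem cells. The 36 genes were taken by symbol from a list of the SREBP pathway and its targets, out of 37620 genes counted, and all 36 were found. The list was chosen with earlier results of these data known, so counts set beside shares of all genes are descriptions. They fall into 5 genes that control SREBP, 7 enzymes from acetyl-CoA to squalene, 10 from squalene to cholesterol, 3 genes of sterol transport, 5 of fatty acid synthesis, 4 desaturases and 2 genes of acyl activation and glycerolipid synthesis.

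SREBP-1 and SREBP-2, encoded by Srebf1 and Srebf2, are membrane-bound transcription factors. When sterols are low, SCAP escorts them out of the endoplasmic reticulum, they are cut, and the freed part turns on genes of sterol and fatty acid synthesis. When sterols are plentiful, INSIG proteins hold SCAP back, and the nuclear receptors called LXR turn on the efflux pumps ABCA1 and ABCG1. Dividing neural cells make much of their own cholesterol, since lipoproteins of the blood do not cross into the brain.

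The cells came from C57BL/6J mouse embryos at E14.5, in midgestation, and were kept dividing in Neurobasal-A medium with B-27 supplement, FGF-2 and EGF. E12KO cells carried the genotype E12-/- and E12wt cells, from their litter mates, E12+/+. E47KO cells carried E47-/- and E47wt cells, from their own litter mates, E47+/+. E12 and E47 are splice forms of the gene Tcf3 and belong to the E proteins, bHLH factors that bind E-box motifs. Each of the 4 groups had 3 libraries of stranded mRNA, and no other treatment was given.

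Depth was 34515297 to 56835783 gene reads per library, so that 3 reads stand for 0.0528 to 0.0869 CPM, which are reads of a gene scaled to a library of 1000000 reads. This floor covers counting error only. Tcf3 was read in every library, at 72.9 to 101 CPM in E12KO, 75.8 to 82.4 CPM in E12wt, 106 to 117 CPM in E47KO and 75.9 to 97.2 CPM in E47wt. Counts over the whole gene hold both splice forms, so they do not check the genotypes. The summed level of 8 stem cell markers was 9500 CPM or more in each library, and that of 6 microglial markers was 1.34 CPM or less, with Cx3cr1 and Aif1 near 0. The labels do not say whether replicates are different embryos or cultures, so the p-values measure the spread between these libraries, which may be technical. E47KO replicate 2 stood apart on the first principal component (73.6, where the other libraries lay between −30.6 and 14.7), and E12wt replicate 3 on the second (50.5, where the others lay between −25.4 and 20.1). Group medians and the genes that depend most on these libraries are given with and without them. In all E47KO libraries and in E47wt replicate 2 Xist, the RNA of the inactive X chromosome, was at 0.249 to 0.839 CPM, against 891 CPM or more elsewhere, so the E47 comparison is partly one of sex.

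Promoters of 28 of the 36 genes were found by symbol in RefSeq (build GRCm38.p6), as windows of 250 bases before and 50 bases after the start, with several starts for some genes. Below are 6 of them. Thrsp and Hsd17b7 had the smallest p-values in E12KO. Cyp51 and Idi1 were among the genes with the lowest values in E47KO replicate 2. Insig1 is the feedback gene of the pathway, and Abca1, an LXR target, lacks the box that most others carry. Capitals mark CCAAT, the box bound by NF-Y, or its reverse complement ATTGG.
Thrsp, chr7:97417501-97417800, minus strand: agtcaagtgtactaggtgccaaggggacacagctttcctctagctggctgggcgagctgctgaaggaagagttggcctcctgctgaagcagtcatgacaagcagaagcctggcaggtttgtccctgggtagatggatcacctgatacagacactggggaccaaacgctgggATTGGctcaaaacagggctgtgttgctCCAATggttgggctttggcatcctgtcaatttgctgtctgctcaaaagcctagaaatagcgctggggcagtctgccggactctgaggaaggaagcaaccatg
Hsd17b7, chr1:169969156-169969455, minus strand: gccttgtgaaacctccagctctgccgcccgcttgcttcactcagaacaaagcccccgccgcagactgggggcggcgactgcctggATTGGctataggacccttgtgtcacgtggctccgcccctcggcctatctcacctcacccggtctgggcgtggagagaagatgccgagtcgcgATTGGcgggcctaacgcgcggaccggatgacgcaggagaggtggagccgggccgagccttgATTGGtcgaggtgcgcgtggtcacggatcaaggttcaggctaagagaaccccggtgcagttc
Cyp51, chr5:4104648-4104947, minus strand: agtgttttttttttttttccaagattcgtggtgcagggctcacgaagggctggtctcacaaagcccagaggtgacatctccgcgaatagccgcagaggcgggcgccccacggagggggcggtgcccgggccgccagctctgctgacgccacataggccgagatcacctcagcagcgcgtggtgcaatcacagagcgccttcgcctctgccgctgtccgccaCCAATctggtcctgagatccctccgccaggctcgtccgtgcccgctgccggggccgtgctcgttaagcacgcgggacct
Idi1, chr13:8885356-8885655, plus strand: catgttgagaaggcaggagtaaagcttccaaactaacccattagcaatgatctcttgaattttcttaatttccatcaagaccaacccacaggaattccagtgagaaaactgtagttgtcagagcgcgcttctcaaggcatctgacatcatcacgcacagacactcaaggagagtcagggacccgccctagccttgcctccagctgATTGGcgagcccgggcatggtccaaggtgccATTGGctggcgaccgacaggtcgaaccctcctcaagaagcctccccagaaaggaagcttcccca
Insig1, chr5:28071162-28071461, plus strand: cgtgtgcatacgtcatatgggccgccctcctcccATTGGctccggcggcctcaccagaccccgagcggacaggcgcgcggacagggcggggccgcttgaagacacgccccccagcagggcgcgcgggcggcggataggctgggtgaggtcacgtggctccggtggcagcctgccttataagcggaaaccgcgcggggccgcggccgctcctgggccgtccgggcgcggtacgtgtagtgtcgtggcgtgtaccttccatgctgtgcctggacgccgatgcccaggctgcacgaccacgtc
Abca1, chr4:53159846-53160145, minus strand: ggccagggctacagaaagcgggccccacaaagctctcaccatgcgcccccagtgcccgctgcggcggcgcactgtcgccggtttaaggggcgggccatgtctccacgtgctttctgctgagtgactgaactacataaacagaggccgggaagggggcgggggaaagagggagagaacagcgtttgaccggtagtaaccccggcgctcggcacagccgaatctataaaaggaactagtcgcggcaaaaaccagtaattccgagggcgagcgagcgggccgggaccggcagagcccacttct

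CCAAT, on either strand, occurred in 22 of the 36 windows (61.1%), against 37.4% of all 32851 promoter windows. Among the 28 genes it was found in 21, including all 9 genes with a window between squalene and cholesterol. Thrsp, Idi1 and Hsd17b7 carried more than 1 copy, as the capitals above show, and Cyp51 and Insig1 carried 1. The GC box GGGCGG, bound by Sp1, was in 26 windows (72.2%), against 35.7% of all. Taking all windows of a gene together, 18 of 28 genes had both a CCAAT box and a GC box, and 3 had neither. In Insig2 the boxes lay in different windows. Shares of all promoters were taken by window and for single motifs only, so these counts of genes have no background. A form of the sterol regulatory element, TCACNCCAC, was in 0 of 36 windows and in 1.24% of all. That says only that these letters are not in these windows.

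E-boxes were searched because E proteins bind them. The general form CANNTG was in 29 of 36 windows (80.6%), against 72.3% of all. CAGGTG, which is 1 kind of CANNTG, was in 9 windows (25%, against 20.2%) of 7 genes, Thrsp and Srebf1 among them. CAGCTG was in 5 windows (13.9%, against 16.3%). CACGTG, the E-box that SREBP-1 and USF can bind, was in 7 windows (19.4%, against 7.15%) of 6 genes, among them Insig1, Hsd17b7 and Abca1. Scap carried it in overlapping windows, which may hold the same site. A match is a string of letters and was not tested for binding.

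Levels were set beside each other per kb of exon, in CPM per kb, as the median of 12 libraries. The length is that of all annotated exons of a gene together. It can exceed that of the transcripts present, so the order and the ratios between genes are approximate. Scd2, the stearoyl-CoA desaturase known for its expression in brain, stood highest at 958 CPM per kb. Its relative Scd1 had 133.5, so that Scd2 exceeded Scd1 by 6.89 to 9.43 times per kb in the single libraries, with the highest ratio in E47KO replicate 2. Insig1, the feedback inhibitor that SREBP itself induces, came next after Scd2, at 171 CPM per kb, and Cyp51, which demethylates lanosterol, after it at 163. The order at the other end was Insig2 with 6.43, Thrsp with 2.11, Abca1 with 1.45 and Abcg1 with 0.0420 CPM per kb. Neighbours in this order overlapped in their ranges over the 12 libraries, apart from Scd2 above Insig1, Insig2 above Thrsp and Abca1 above Abcg1. Abcg1 rested on 5 to 53 reads per library.

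**Figure D1:**
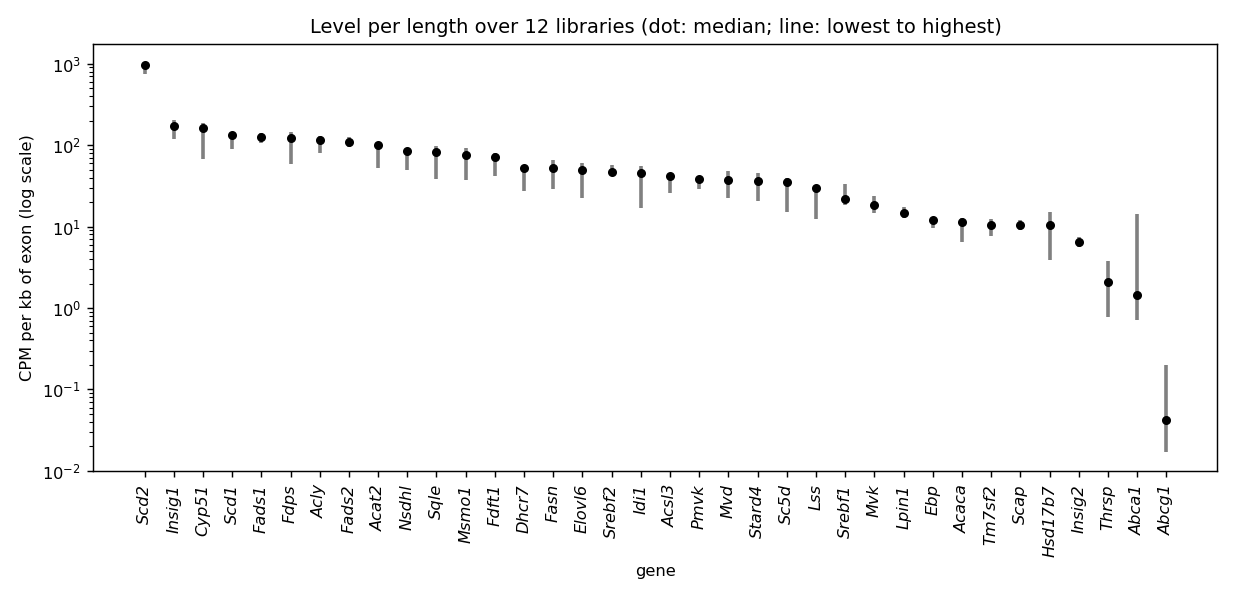
Level of each gene in CPM per kb of exon on a log axis, as the median of 12 libraries (dot) with the lowest and highest library (line). Scd2 lies at 958 and Abcg1 at 0.0420, and the longest line belongs to Abca1, whose highest library is 20.3 times its lowest.

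Of the pair of SREBP genes, Srebf2, which mainly drives cholesterol genes, had the higher level per kb in every library. Its ratio to Srebf1, which mainly drives fatty acid genes, was 2.45, 2.42 and 2.78 in E12KO and 2.40, 1.99 and 2.20 in E12wt. It was 1.97, 1.52 and 1.48 in E47KO and 2.15, 2.29 and 1.61 in E47wt. The ratio was thus above that of all E12wt libraries in E12KO, by a small margin, and the E47 groups overlapped. Insig1 exceeded Insig2, the isoform that SREBP does not induce, by 15.9 to 30.5 times per kb. The 3 smallest of these ratios were in E12wt replicate 3, E47KO replicate 2 and E47wt replicate 3.

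Much of the variation of the genes lay between single libraries. Each gene's log2 CPM in a library was set against its mean over the 12 libraries, and the median of these deviations over the 36 genes was taken. It was 0.13, 0.16 and 0.23 in E12KO, 0.09, 0.09 and −0.25 in E12wt, 0.11, −0.53 and −0.06 in E47KO, and 0.11, 0.14 and −0.20 in E47wt. E12KO replicate 3 thus held the highest median and E47KO replicate 2 the lowest, and in both wild types the third library lay below the other two. In E12wt replicate 3 and in E47wt replicate 3 alike, 4 of 36 genes lay above their mean, where 50.8 and 53.5% of all 15277 genes kept in the joint scaling did. The enzymes from squalene to cholesterol moved most closely together. All 10 lay below their means in E12wt replicate 3, in E47KO replicate 2 and in E47wt replicate 3, and all 10 above in E12KO replicates 1 and 3, both other E12wt libraries, E47KO replicate 1 and E47wt replicate 2. In bulk RNA, fewer cells of a type and less RNA per cell cannot be told apart.

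**Figure D2:**
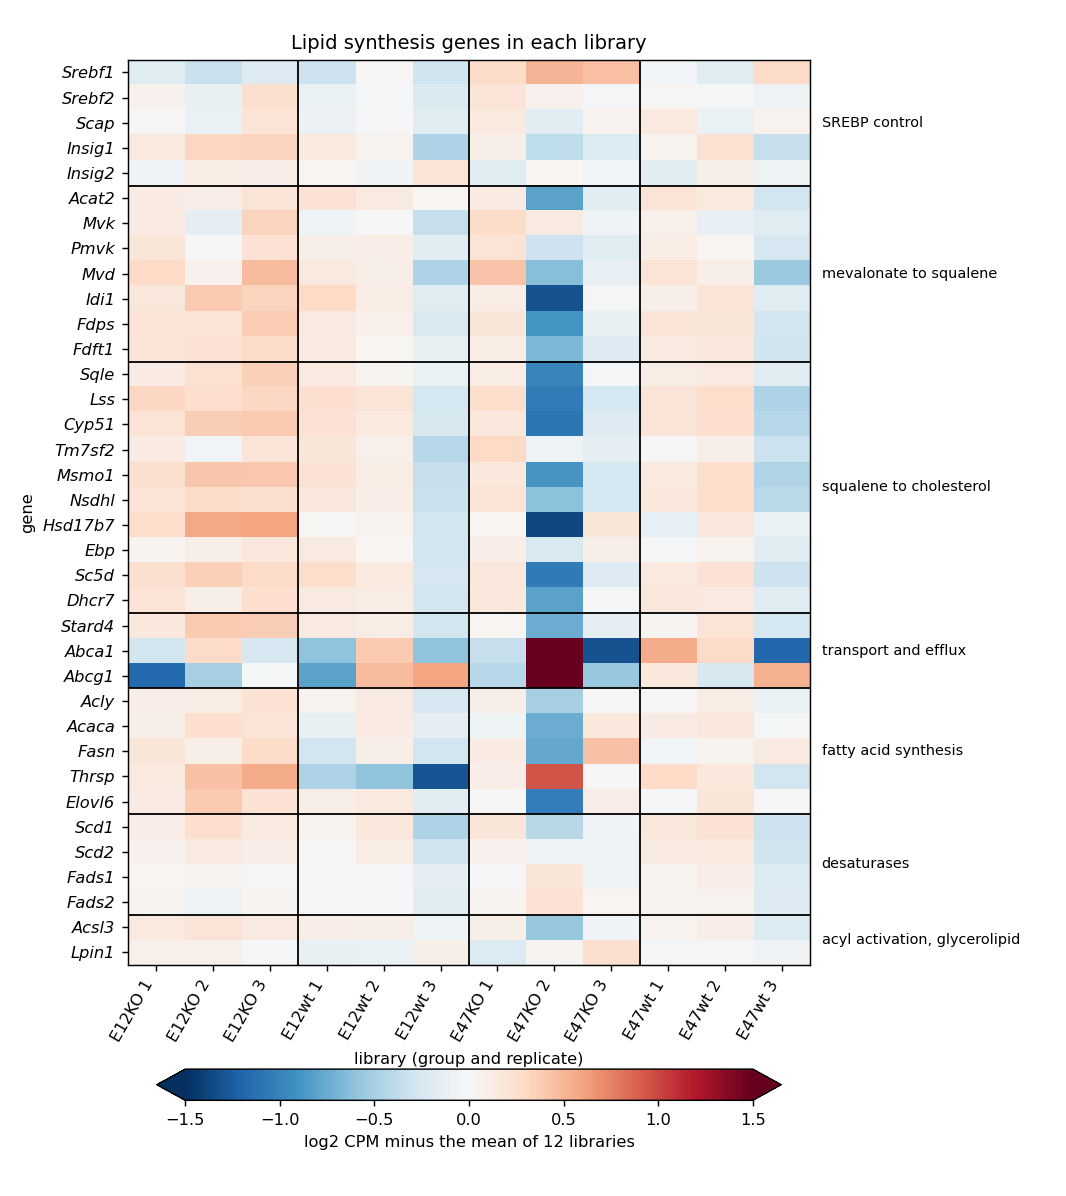
Log2 CPM of each gene minus its mean over 12 libraries, with genes in rows by role and libraries in columns by group, on a scale that ends at 1.5 in either direction. The column of E47KO replicate 2 is dark blue at most sterol enzymes, but pale at Mvk, Pmvk, Tm7sf2 and Ebp. It is dark red at Abca1 and Abcg1. The columns of E12wt replicate 3 and E47wt replicate 3 are pale blue at most genes.

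E12KO was set against E12wt to ask which of these genes depend on E12. In E12KO 33 of the 36 genes had a log2 fold change above 0, with a median of 0.22, where 51.4% of all 14755 genes tested lay above 0 and their median was 0.00. Over the 12 libraries 22 of 36 members correlated above 0.8 with the median of the others, and 6 correlated below 0. Counts of members, here and below, are therefore not counts of independent genes, and a single library can move many of them. With edgeR's quasi-likelihood test and Benjamini-Hochberg adjustment over all genes, 0 of 36 members were called at an adjusted p under 0.05, where the background was 0.0407% (6 genes). At an unadjusted p under 0.05, 11 members were higher in E12KO, where 4.29% of all genes were, and 0 members were lower, where 4.67% of all genes were. For 9 members every E12KO library lay above every E12wt library, where 6.47% of all genes did, and for 0 members the reverse held, where it did for 7.17%. DESeq2, run on the same counts, called Thrsp and Hsd17b7, with a background of 0.55% of genes.

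Thrsp, also known as Spot 14, a nuclear and cytosolic protein tied to fatty acid synthesis, had the largest fold change. It had 4.68, 5.73 and 6.25 CPM in E12KO, against 3.06, 2.77 and 1.69 CPM in E12wt. The groups did not overlap, and the 3 E12wt libraries were the lowest of all 12. The log2 fold change was 1.15 ± 0.23 (SE, edgeR, adjusted p = 0.356), and with DESeq2 1.15 (adjusted p = 0.00136). The authors' deposited table gave 1.12 ± 0.25 (adjusted p = 0.00563). Over the other settings the value lay between 0.93 and 1.31. It rests on few reads, 73 to 263 per library in this line.

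Hsd17b7, which reduces 3-ketosteroids in the late sterol pathway, had 61.5, 77.1 and 77.6 CPM in E12KO, against 52.2, 53.3 and 42.2 CPM in E12wt. All E12KO libraries were above all E12wt libraries, E12KO replicate 1 by the smallest margin. The log2 fold change was 0.56 ± 0.12 (SE, edgeR, adjusted p = 0.418), and DESeq2 gave 0.55 (adjusted p = 0.00672). In the authors' deposited table it was 0.55 ± 0.13 (adjusted p = 0.00893). These were the 2 members past an adjusted p of 0.05 in that table, of 35 listed, where 0.513% of its genes passed.

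The enzymes from acetyl-CoA to squalene were all above 0, 7 of 7, with a median log2 fold change of 0.22 and 0 called. Fdft1, squalene synthase, had 319, 326 and 342 CPM in E12KO, against 308, 285 and 259 CPM in E12wt. The groups did not overlap, although E12wt replicate 1 came close, and the log2 fold change was 0.22 ± 0.07 (edgeR, adjusted p = 0.523). Fdps, which makes farnesyl pyrophosphate, had 534, 528 and 604 CPM in E12KO, against 508, 489 and 394 CPM in E12wt, 0.27 ± 0.10 on the log2 scale (edgeR, adjusted p = 0.529). The highest E12KO library of Fdps was replicate 3 and the lowest E12wt library was replicate 3. Part of the exon sequence of several of these genes occurs elsewhere: 39.1% of the 50-base stretches of Acat2, a thiolase at the entry of the pathway, are shared with Acat3, 26.2% of those of Fdps and 17.7% of those of Idi1 with other genes. Reads from such stretches may be missing from the counts or may belong to the other gene. These shares are not the error of a count, and their effect on the fold changes was not tested. Acat2, Mvk, Pmvk, Mvd and Idi1 overlapped between the groups, with log2 fold changes of 0.02 for Acat2 to 0.35 for Mvd, the decarboxylase that makes isopentenyl pyrophosphate.

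From squalene to cholesterol 10 of 10 enzymes were above 0, with a median of 0.23, and 0 were called. Msmo1, the sterol C4 oxidase, had 497, 563 and 559 CPM in E12KO, against 490, 456 and 331 CPM in E12wt, 0.35 ± 0.13 on the log2 scale (edgeR, adjusted p = 0.531). Nsdhl, the X-linked enzyme of C4 demethylation, had 252, 264 and 258 CPM in E12KO, against 245, 234 and 173 CPM in E12wt, 0.25 ± 0.12 on the log2 scale (edgeR, adjusted p = 0.557). In both genes E12wt replicate 1 lay just under the lowest E12KO library. Sqle, squalene epoxidase and a rate-limiting enzyme of the pathway, had 456, 490 and 536 CPM in E12KO, against 459, 430 and 391 CPM in E12wt. Its groups overlapped by 1 library, and the log2 fold change was 0.22 ± 0.08 (edgeR, adjusted p = 0.529). The other 6, namely Lss, Cyp51, Tm7sf2, Ebp, Sc5d and Dhcr7, overlapped between the groups, with log2 fold changes of 0.13 to 0.28.

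Among the genes that control SREBP, 3 of 5 were above 0 and 0 were called. Srebf1 had 116, 104 and 115 CPM in E12KO, against 106, 133 and 106 CPM in E12wt, −0.04 ± 0.10 on the log2 scale (edgeR, adjusted p = 0.902). Srebf2 had 362, 321 and 407 CPM in E12KO, against 323, 338 and 299 CPM in E12wt, 0.19 ± 0.09 on the log2 scale (edgeR, adjusted p = 0.562). Both genes overlapped between the groups. Scap, the escort, had 78.6, 72.8 and 89.8 CPM in E12KO, against 73.2, 78.3 and 68.4 CPM in E12wt. The groups overlapped, and the log2 fold change was 0.14 ± 0.09 (edgeR, adjusted p = 0.624). Insig1 had 557.5, 631 and 637 CPM in E12KO, against 560, 523 and 367 CPM in E12wt. E12wt replicate 3 was far below its group, and the log2 fold change was 0.34 ± 0.14 (edgeR, adjusted p = 0.549). Insig2 was at 0.00 ± 0.10 on that scale.

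In sterol transport, Stard4, a cytosolic cholesterol carrier, had 218, 257 and 251 CPM in E12KO, against 213, 210 and 161 CPM in E12wt. The groups did not overlap and the log2 fold change was 0.32 ± 0.12 (edgeR, adjusted p = 0.523). For the efflux pumps the log2 fold change was 0.14 ± 0.28 for Abca1 and −0.78 ± 0.51 for Abcg1, with overlapping groups in both. Over the other settings Abca1 lay between −0.08 and 0.55, and Abcg1 rested on 5 to 23 reads per library in this line. Whether they differ from Stard4 was not tested.

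In fatty acid synthesis, 5 of 5 genes were above 0. Fasn, fatty acid synthase, had 608, 570 and 649 CPM in E12KO, against 440, 571 and 441 CPM in E12wt. E12wt replicate 2 equalled the lowest E12KO library within 1 CPM, the others lay lower, and the log2 fold change was 0.34 ± 0.11 (edgeR, adjusted p = 0.520). Acly, Acaca and Elovl6, for citrate cleavage, malonyl-CoA and elongation, had log2 fold changes of 0.16, 0.23 and 0.22. Of the 50-base stretches of Acaca, 30.4% occur in other genes, mostly in Gm5182. All 4 desaturases were above 0, by 0.07 to 0.23. Scd2 had 5215, 5511 and 5376 CPM in E12KO, against 5017, 5411 and 4051 CPM in E12wt, 0.16 ± 0.11 on the log2 scale (edgeR, adjusted p = 0.639), with overlap. Fads1, the delta-5 desaturase, was the ninth member without overlap, at 0.10 ± 0.06, and Acsl3, which activates fatty acids, had 188, 194 and 186 CPM in E12KO, against 182, 180 and 162 CPM in E12wt, 0.12 ± 0.06 on the log2 scale (edgeR, adjusted p = 0.584). Lpin1, a phosphatidate phosphatase, was at 0.08 ± 0.07.

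The size of this shift, and the count past an unadjusted p of 0.05, depended on single libraries. Without E12wt replicate 3 the median log2 fold change of the 36 genes was 0.09, with 31 above 0 and 6 at an unadjusted p under 0.05, where 6.34% of all genes were in either direction. Against the 11 members past that threshold with all libraries (8.96% of all genes in either direction), there were 3 when E12KO replicate 3 was left out (3.8% of all genes), 17 when E12wt replicate 2 was (14.4%), and 1 with the spread estimated from all 12 libraries (4.6%). In the last of these settings the members' share, 1 of 36, was below that of all genes. Without E12wt replicate 3 the enzymes from squalene to cholesterol had a median of 0.10 (9 of 10 above 0) and those from acetyl-CoA to squalene 0.15 (6 of 7). Single log2 fold changes without that library were 0.17 for Insig1, 0.19 for Msmo1, 0.11 for Nsdhl, 0.15 for Fdps, 0.15 for Fdft1, 0.19 for Stard4, 0.04 for Scd2, 0.27 for Fasn, 0.45 for Hsd17b7 and 0.93 for Thrsp. Of the marker lists, the mesenchymal one separated the groups. The summed level of 7 mesenchymal markers was 1.32 to 1.76 CPM in E12KO, against 8.03 to 10.8 CPM in E12wt, and 3 of 4 tested were called lower. The sums of the other lists overlapped between the groups, with 0 genes called. Where 48.6% of all genes lay below 0, 7 of 7 tested oligodendrocyte markers did, with sums of 874 to 1105 CPM in E12KO and 969 to 1427 CPM in E12wt, the highest in replicate 3. Of 7 tested neuronal markers 6 did, with sums of 1274 to 1436 CPM in E12KO and 1295 to 1392 CPM in E12wt, and of 7 astrocyte markers 5 lay above 0, with sums of 740 to 996 CPM in E12KO and 561 to 884.5 CPM in E12wt. Their part in the result was not tested.

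**Figure D3:**
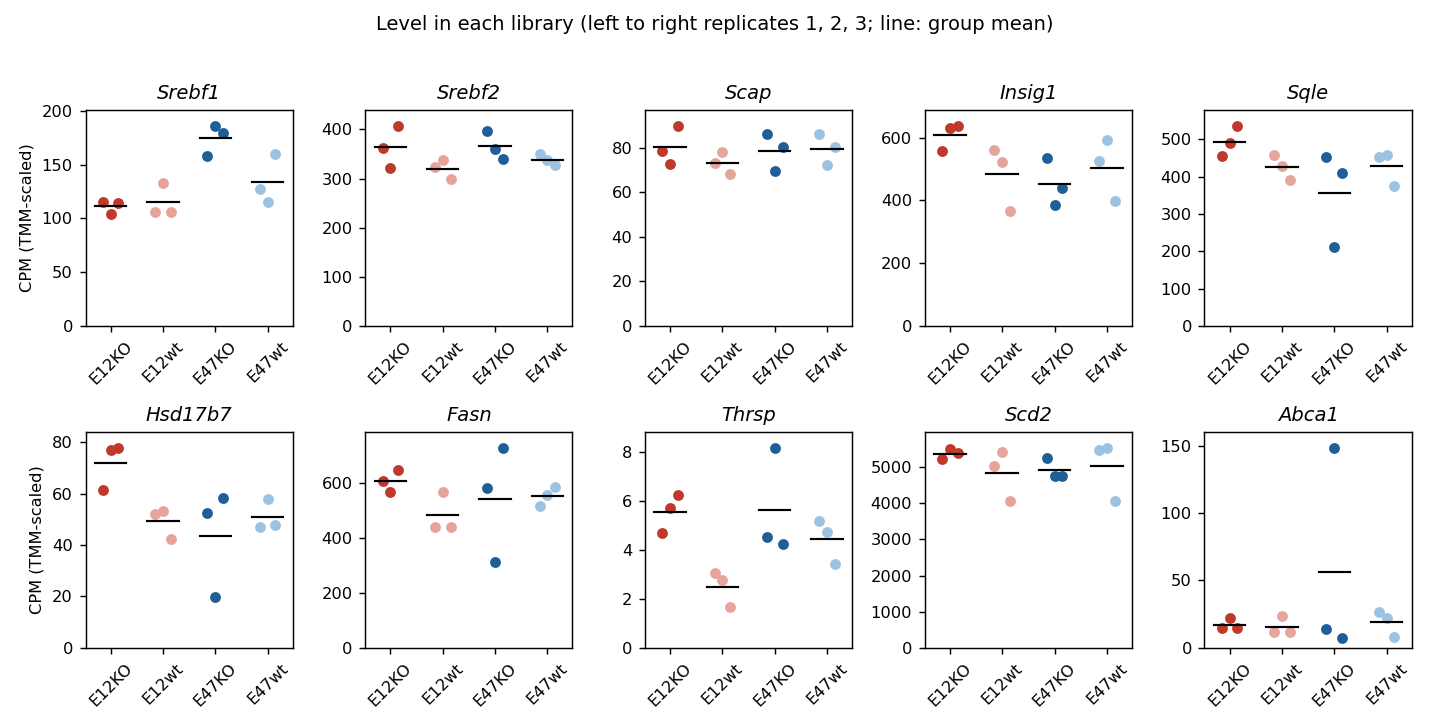
CPM of 10 genes in each library by group, with replicates 1 to 3 from left to right and the group mean as a line, each panel starting at 0. Thrsp and Hsd17b7 show no overlap of E12KO with E12wt, and Abca1 shows E47KO replicate 2 at 148 CPM far above the rest.

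Genes beside the 36 gave the pathway's surroundings. None of the 52 genes of 4 further lists (regulators, sterol transport and storage, acyl supply and elongation, fatty acid oxidation) was called in E12KO. The medians were 0.03 for 11 regulators, 0.05 for 14 transport and storage genes, 0.07 for 15 acyl supply and elongation genes and 0.07 for 12 oxidation genes, on the log2 scale. All 12 oxidation genes lay above 0, where 51.4% of all genes did, by 0.01 to 0.27, but 8 of 12 without E12wt replicate 3. The listed genes with the smallest p were Elovl1, an elongase (0.31 ± 0.12), and Acacb, the mitochondrial acetyl-CoA carboxylase (−0.65 ± 0.27), in acyl supply. They were the deubiquitinase Usp2 (0.22 ± 0.10) and Mlx, the partner of ChREBP (0.12 ± 0.07), among regulators. Scarb1, the HDL receptor (0.15 ± 0.07), Cyp46a1, the brain cholesterol hydroxylase (−0.41 ± 0.24), and the dehydrogenases Acadm (0.15 ± 0.07) and Acadl (0.19 ± 0.11) led the other lists.

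E47KO was set against E47wt in the same way, with its own wild type. Here 12 of the 36 genes lay above 0 and 24 below, with a median log2 fold change of −0.12, where 49% of all 14965 genes tested lay above 0 and 51% below. With edgeR 0 members were called, where the background was 0.0134% (2 genes), and DESeq2 called 0 of the members too. The unadjusted threshold of 0.05 was passed by 1 member, and by 2.19% of all genes. The groups overlapped for all 36 members, where 4.02% of genes had all E47KO libraries higher and 3.88% all lower. Of the 35 members in the authors' deposited table, 0 passed an adjusted p of 0.05, where 0.0796% of its genes did.

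That member was Srebf1. It had 158, 186 and 180 CPM in E47KO, against 127, 116 and 160 CPM in E47wt. E47wt replicate 3 lay above the lowest E47KO library, so that the groups just overlapped. The log2 fold change was 0.38 ± 0.14 (edgeR, unadjusted p = 0.0327, adjusted p = 0.971). It was above 0 in all the settings tried, between 0.28 and 0.59. Without E47KO replicate 2, E47wt replicate 1 or E47wt replicate 2, 0 members passed the unadjusted threshold, which 3.35, 0.971 and 1.18% of all genes then passed.

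Srebf2 had 397, 361 and 340 CPM in E47KO, against 350, 338 and 327 CPM in E47wt, 0.11 ± 0.10 on the log2 scale (edgeR, adjusted p = 0.971). Scap had 86.1, 69.7 and 80.5 CPM in E47KO, against 86.1, 72.3 and 80.4 CPM in E47wt, nearly the same values, at −0.02 ± 0.12. Insig1 had 536, 386 and 438 CPM in E47KO, against 524, 592 and 398 CPM in E47wt, −0.15 ± 0.18 on the log2 scale (edgeR, adjusted p = 0.971). All of them overlapped between the groups.

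The sterol enzymes had medians of −0.24 from acetyl-CoA to squalene (5 of 7 below 0) and −0.24 from squalene to cholesterol (8 of 10 below 0). Without E47KO replicate 2 the first median was 0.01 (3 of 7 below 0), and 5 of the 10 later enzymes lay below 0, with Sqle at 0.01, Cyp51 at −0.04, Idi1 at 0.01 and Hsd17b7 at 0.12. Sqle had 452, 211 and 409 CPM in E47KO, against 452, 458.5 and 374 CPM in E47wt, −0.26 ± 0.27 on the log2 scale (edgeR, adjusted p = 0.971). Of the E47KO libraries, replicate 2 lay far below the E47wt range and the other two within it. Fasn had 582, 314 and 728 CPM in E47KO, against 519, 558 and 587 CPM in E47wt, −0.03 ± 0.27 on the log2 scale, with E47KO libraries at both ends. The 10 sterol enzymes past squalene lay between −0.32 for Cyp51 and 0.10 for Tm7sf2, a sterol C14 reductase. Scd2 had 5252, 4745 and 4740 CPM in E47KO, against 5472, 5520 and 4057 CPM in E47wt, −0.03 ± 0.14 on that scale.

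**Figure D4:**
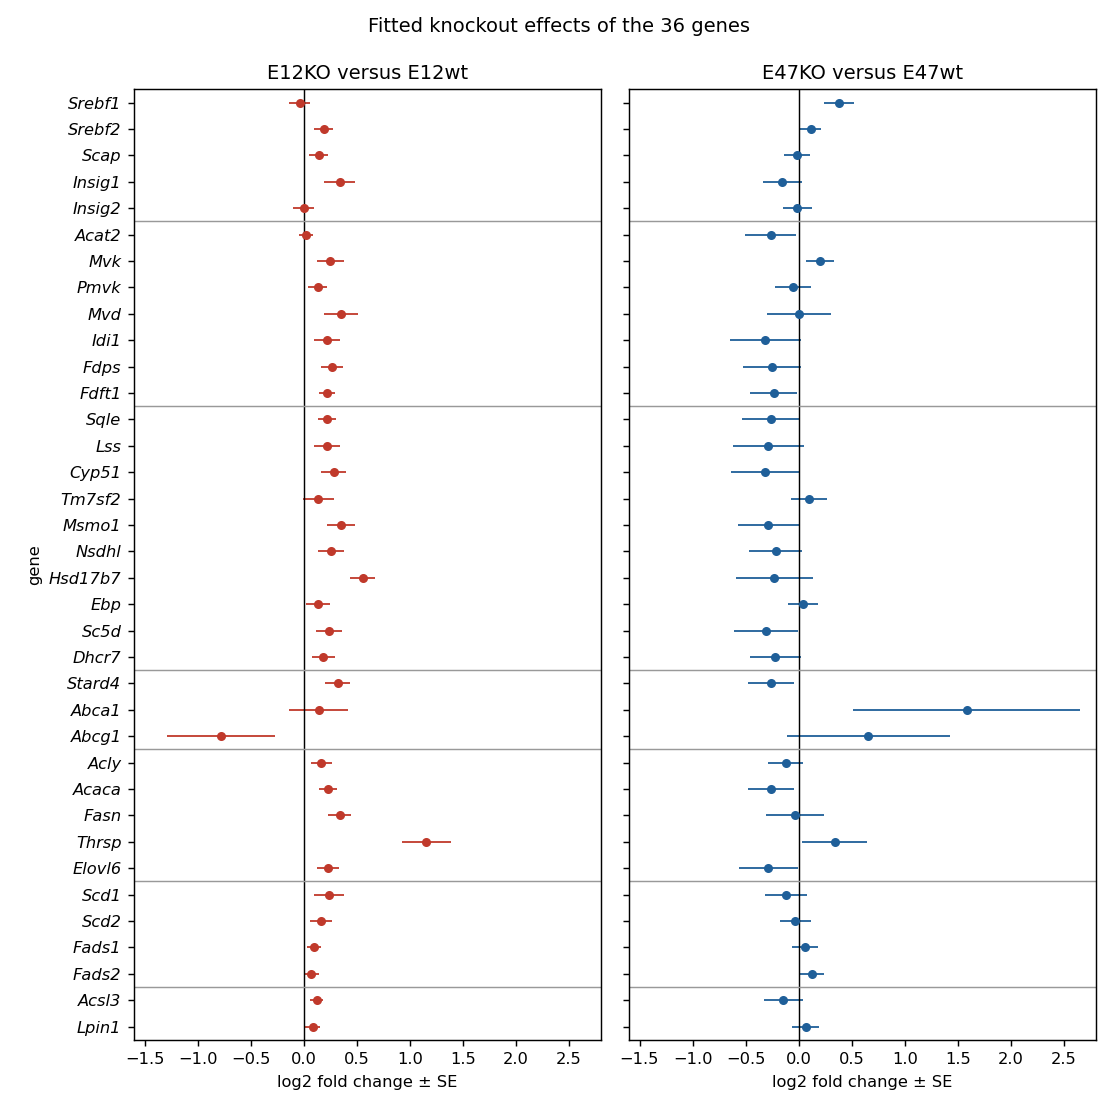
Log2 fold change with its SE of the 36 genes in E12KO versus E12wt (left) and E47KO versus E47wt (right), in rows by role. In the E12 panel 33 points lie above 0 with short bars, and in the E47 panel 24 lie below 0 with longer ones, Abca1 at 1.58 ± 1.07 having the longest.

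E47KO replicate 2 held many of the extremes. Of the 36 genes 20 had their lowest value of 12 libraries there and 6 their highest, where 30.1 and 29% of all genes did. Abca1, the efflux pump for cholesterol to apolipoproteins, had 14.2, 148 and 7.29 CPM in E47KO, against 26.6, 22.0 and 7.94 CPM in E47wt. Replicate 2 was thus 13.8 times the mean of the other E47KO libraries, while replicate 1 lay within the E47wt range and replicate 3 just below it. Abcg1, its relative that loads HDL, had 0.239, 1.46 and 0.213 CPM in E47KO, against 0.383, 0.280 and 0.511 CPM in E47wt. Thrsp, Srebf1, Fads1 and Fads2 also had their highest level in that library, Thrsp at 8.17 CPM.

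Of the 20 genes lowest there, 6 were enzymes from acetyl-CoA to squalene and 8 from squalene to cholesterol, and the others were Stard4, Acly, Acaca, Fasn, Elovl6 and Acsl3. Hsd17b7 had 52.3, 19.9 and 58.1 CPM in E47KO, against 47.1, 57.7 and 48.0 CPM in E47wt, and Idi1, which isomerises isopentenyl pyrophosphate, had 158, 59.4 and 145 CPM in E47KO, against 155.5, 167.5 and 129 CPM in E47wt. Cyp51 had 712, 298 and 556 CPM in E47KO, against 725, 752 and 473 CPM in E47wt. In each of them replicate 2 lay below all other libraries while the other E47KO libraries lay within or near the E47wt range. Against the mean of the other 11 libraries, log2 CPM in that library differed by −1.49 for Hsd17b7, −1.42 for Idi1, −1.19 for Cyp51 and −1.14 for Elovl6, the fatty acid elongase, and by 3.31 for Abca1 and 2.15 for Abcg1.

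**Figure D5:**
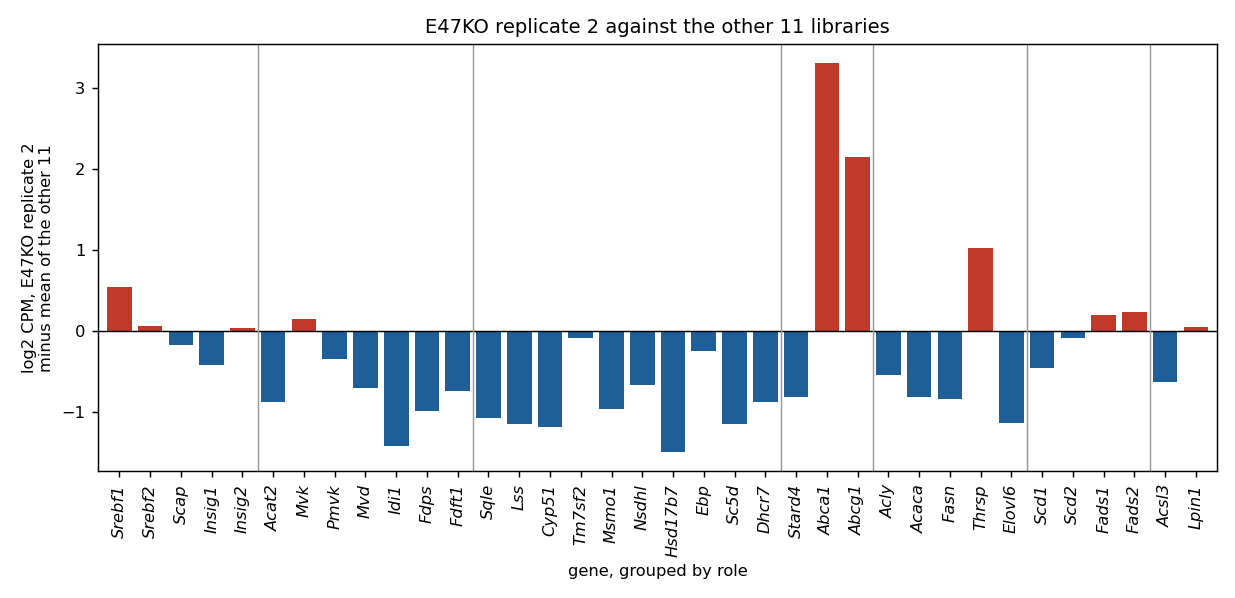
Log2 CPM of each gene in E47KO replicate 2 minus the mean of the other 11 libraries, in order of role. Bars reach −1.49 at Hsd17b7 and 3.31 at Abca1, and all 10 enzymes from squalene to cholesterol lie below 0.

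Without E47KO replicate 2 the median log2 fold change of the 36 genes was 0.00, with 18 above 0, and Abca1 was at −0.82 instead of 1.58. The median was −0.28 without E47KO replicate 1, −0.05 without E47wt replicate 2 and −0.20 without E47wt replicate 3, so that its size rested on single libraries of both groups. With the sex class read from Xist and Y-linked counts as a covariate the median was −0.24. Other genes stood out in the same library. The summed level of 12 fatty acid oxidation genes was 1648 CPM there, against 1033 to 1372 CPM in the other libraries, and that of 14 transport and storage genes 1597 CPM, against 1072 to 1265 CPM. The LXR gene Nr1h2 was at 36.6 CPM, against 18.1 to 23.6 CPM in the other libraries. Among the markers, astrocyte markers summed to 1087 CPM in that library, against 561 to 996 CPM elsewhere, and stem cell markers to 10440 CPM, within the range of the rest. That sum hides differences between the stem cell markers. Hes5 was at 962 CPM there, against 291 to 496 CPM in the other libraries. Vim and Pax6 were also highest there, and Ptprz1 was lowest. Mesenchymal markers summed to 2.22 to 3.31 CPM in E47KO, against 1.53 to 15.5 CPM in E47wt. Their part in the result was not tested.

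None of the 52 companion genes was called in E47KO either. Their medians were 0.22 for regulators, 0.13 for transport and storage, −0.12 for acyl supply and elongation and 0.12 for oxidation. They rested on E47KO replicate 2: without it they were 0.03, −0.06, 0.02 and −0.08 in the same order, with 0 of 12 oxidation genes above 0 instead of 11. Nr1h2 (0.44 ± 0.23) and the retinoid receptor Rxrb (0.27 ± 0.18), the lipid droplet protein Plin2 (0.53 ± 0.27) and the lipoprotein receptor Vldlr (−0.36 ± 0.19) had the smallest p of the first 2 lists. In the others these were Mid1ip1, the partner of Thrsp (0.30 ± 0.18), the elongase Elovl7 (−0.43 ± 0.31), the thiolase Acaa2 (0.43 ± 0.33) and the dehydrogenase Acadvl (0.22 ± 0.22). Of the X-linked members, Nsdhl had 252, 143 and 182.5 CPM in E47KO, against 243, 263 and 165 CPM in E47wt, and Ebp, the sterol isomerase, was at 0.04 ± 0.14. The E47wt library with low Xist held the highest Nsdhl value of that group.

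The difference between the knockout effects was tested as an interaction over all 12 libraries, E12 minus E47. It was above 0 for 32 of 36 genes, with a median of 0.34, where 49.3% of all 15277 genes were. With edgeR 0 members were called, and 0 genes in all (0%). Without adjustment, 463 genes (3.03%) passed 0.05, and DESeq2 called 1 gene, none of the members. The member past the unadjusted threshold was Srebf1, at −0.42 ± 0.18 (edgeR, unadjusted p = 0.0399, adjusted p = 0.932). The largest differences above 0 were those of Thrsp (0.81 ± 0.41) and Hsd17b7 (0.78 ± 0.42), and the largest below 0 those of Abca1 (−1.45 ± 1.22) and Abcg1 (−1.44 ± 1.03), all within about 2 SE of 0. Set side by side, 23 genes were above 0 in E12KO and below 0 in E47KO, 10 above 0 in both, 2 below 0 in E12KO and above 0 in E47KO, and 1 below 0 in both. Without E47KO replicate 2 the median difference was 0.15, Abca1 stood at 0.94 and Abcg1 at 0.00, and without E12wt replicate 3 the median was 0.21. By role the median was 0.49 for the enzymes from squalene to cholesterol (10 of 10 above 0), 0.34 from acetyl-CoA to squalene (7 of 7) and 0.48 for fatty acid synthesis (5 of 5), against −0.01 for all genes. Without E47KO replicate 2 these were 0.24 (8 of 10), 0.11 (7 of 7) and 0.22 (5 of 5). Among the companion genes 0 were called. The smallest p belonged to Rxrb (−0.35 ± 0.21) and Mbtps2, the protease that frees SREBP (0.29 ± 0.21), Cyp46a1 (−0.62 ± 0.36) and Vldlr (0.36 ± 0.22), the malic enzyme Me1 (0.31 ± 0.18) and Hsd17b12 (0.31 ± 0.19), Hadhb (0.18 ± 0.12) and Acaa2 (−0.42 ± 0.37).

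The wild types, E47wt against E12wt, show how far the genes differed between the lines without a knockout. The median log2 fold change was 0.02, with 23 of 36 genes above 0, where 48.5% of all 14892 genes were. With edgeR 0 members and 0 genes in all (0%) were called. Without adjustment, 568 genes (3.81%) and 1 member passed 0.05, and DESeq2 called 6 genes, none of the members. The member was again Thrsp, with 5.20, 4.73 and 3.45 CPM in E47wt, against 3.06, 2.77 and 1.69 CPM in E12wt, 0.83 ± 0.26 on the log2 scale (edgeR, unadjusted p = 0.0144, adjusted p = 1). All E47wt libraries lay above all E12wt libraries for this 1 member, where 5.08% of genes did, and for 0 members they lay below, where 4.44% of genes did. The E12wt libraries in this comparison are the same that stand against E12KO, and Thrsp averaged 5.55 ± 0.80 CPM in E12KO and 4.46 ± 0.91 CPM in E47wt (SD, n = 3 each).

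The other members differed little between the wild types. Srebf1 was at 0.22 ± 0.14, Srebf2 at 0.08 ± 0.07, Scap at 0.12 ± 0.08, Insig1 at 0.06 ± 0.19, Sqle at 0.00 ± 0.10, Fasn at 0.19 ± 0.11 and Scd2 at 0.05 ± 0.15 on the log2 scale. The 10 enzymes from squalene to cholesterol lay between −0.05 and 0.05, and without E12wt replicate 3 all 10 lay below 0, with a median of −0.14. The median lay between −0.07 and 0.11 with single libraries left out. It was below 0 without E12wt replicate 3, E47wt replicate 1 or E47wt replicate 2, highest without E47wt replicate 3 and 0.08 without either other E12wt library, and it was −0.05 with the sex class as a covariate. Among companion genes, 0 were called, and the smallest p belonged to Mlxipl, the gene of ChREBP (0.66 ± 0.27), Rxra (0.14 ± 0.09), the receptors Lrp1 (0.29 ± 0.12) and Scarb1 (0.09 ± 0.05), Me1 (0.16 ± 0.13), Elovl1 (0.11 ± 0.12), and the carnitine shuttle genes Cpt2 (0.28 ± 0.12) and Slc25a20 (0.18 ± 0.10).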

How the data were processed

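Libraries were made from mRNA with strand information kept, per the labels' protocols. The submitters' processing notes name STAR 2.5, DESeq2, DESeq and build mm9. For every library the authors deposited raw read counts of each gene, without regard to strand, on the sense strand and on the opposite strand. The opposite-strand counts, with 97.1 to 97.2% of strand-assigned reads, were used here. For each line the authors also deposited a table with a normalized signal, which is the counts over a factor per library, log2 fold changes with errors, a score (fold change over error) and p-values. Members and lists were chosen with earlier results of these data known. Groups were taken from the sample titles.

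Counts were tested in R 4.3.3 with edgeR 4.0.16 (filterByExpr, TMM, quasi-likelihood F test, two-sided, Benjamini-Hochberg adjustment over all genes, called under 0.05), 6 libraries per comparison and 12 for the interaction. The tests were also run on simulated counts with the same spread for every gene and no outlying library. That run cannot vouch for them on libraries that stand apart, as some did here. The SE is the fold change over the root of F. CPM values were scaled over all 12 libraries, and log2 CPM carries a prior count of 2. DESeq2 1.42.0 was an alternative. Exon lengths came from a GRCm38 annotation, which named 32897 of 37620 gene IDs. Values in every library are given for 7 fixed genes and for up to 8 non-overlapping members per comparison. The values in every library of Abca1, Abcg1, Idi1, Cyp51, Hsd17b7 and Nsdhl in the E47 line were chosen after they were seen.

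Replicates differed beyond sampling noise (chi-square per degree of freedom of 9.53 or more). Group deviations of same-numbered libraries correlated across genes at 0.10, 0.23 and 0.45 in the E47 line, and at 0.09, 0.06 and −0.01 in the E12 line. Differently numbered libraries reached 0.15 in the E47 line (E47KO replicate 2 with E47wt replicate 1) and 0.13 in the E12 line. Same-numbered wild types of the different lines correlated at 0.05, 0.26 and 0.28. Whether the numbers pair libraries is therefore not settled by this measure. The labels give no shared litter or day.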

Additional observations from a re-analysis of the deposited data

How the results depend on the processing

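The settings tried were RLE normalization, DESeq2, no filter on low counts, both-strand counts, all 12 libraries in the fit, the replicate block, the sex class and each library left out. No member was called by edgeR under any of them. DESeq2 called 2 members in E12KO versus E12wt, and 0 in the other comparisons. The cause was not tested. Left-out libraries gave 0 called members everywhere. The median log2 fold change then ranged from 0.09 to 0.25 in E12KO versus E12wt, from −0.28 to 0.00 in E47KO versus E47wt, from 0.15 to 0.50 for the difference between effects and from −0.07 to 0.11 in E47wt versus E12wt. Over all settings 421 of 432 member values kept their sign in E12KO versus E12wt, 430 of 468 in E47KO versus E47wt, 612 of 648 for the difference and 379 of 468 between the wild types. With the replicate number as a block the medians were 0.22 in E12KO versus E12wt, −0.13 in E47KO versus E47wt, 0.37 for the difference and 0.03 between the wild types, and the block changed no call of a member. Abca1 in E47KO versus E47wt moved to 0.52 under the block. Sex could not be fitted in the E12 line, where all libraries had the same class. Over all genes, edgeR called 6 in E12KO versus E12wt, against 95 with DESeq2, 20 without a filter, 2 with all 12 libraries and 2 to 10 with a library left out. In E47KO versus E47wt it called 2, against 5 with DESeq2, 1 with the sex class and 0 to 7 with a library left out. Depth limits Abcg1 and Thrsp most.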
